A study of Mus musculus with 12 samples.

Results

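The genes described here are 4 pairs of ribosomal protein genes, each made of a parent gene and a "like" paralog: Rpl22 and Rpl22l1, Rps27 and Rps27l, Rpl36a and Rpl36al, and Rpl7 and Rpl7l1. They were chosen by name, as cytosolic ribosomal protein genes with an autosomal or X-linked like paralog, and they are 8 of the 55401 genes listed in the count files. All 8 passed the filter on low counts, as did 6596 genes in all. The study used adult mouse hearts of 2 genotypes, wild type (WT) and Rpl3l-/- (KO), which lack Rpl3l, the striated muscle paralog of Rpl3. Input libraries were made from total RNA of heart homogenates. For the IP libraries, hearts received cycloheximide when excised, ribosomes were captured with an anti-HA antibody, and the RNA attached to them was recovered, a procedure called translating ribosome affinity purification (TRAP). Poly(A) RNA of both fractions was sequenced as nanopore direct cDNA, with biological triplicates in each of the 4 groups (WT Input, KO Input, WT IP and KO IP). The labels do not give the strain, sex or exact age of the animals, which cells carry the HA tag, or whether an Input and an IP library came from the same heart. They also do not name the ribosomal protein that carries the tag; in the widely used RiboTag mouse line it is Rpl22, one of the 8 genes. Whether the Rpl22 locus was altered by a tag in these hearts, which would bear on all Rpl22 counts given here, was not tested. IP RNA was purified on columns and Input RNA with TRIzol, so fraction and RNA purification cannot be told apart.

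Ribosomal protein genes are usually present as a single active copy, and a few have a second active copy that encodes a closely related protein. Rpl22 is an RNA-binding protein of the large subunit, Rpl22l1 can take its place, and Rpl22 protein is known to repress Rpl22l1 expression. Rps27 is a zinc finger protein of the small subunit, and Rps27l is known as a target gene of the stress-activated factor Trp53 (p53). Rpl36a is an X-linked gene of the large subunit, and Rpl36al is an autosomal retrogene derived from it, a gene without introns made by reverse transcription of an mRNA. Rpl7 is a large subunit protein, whereas Rpl7l1 is related to nucleolar proteins that act in the assembly of the large subunit. Transcripts of ribosomal proteins as a class are known to be regulated at translation through a pyrimidine-rich start.

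Library totals ran from 169359 counts (KO Input replicate 3) to 710868 counts (KO IP replicate 2), which makes 3 counts equal to 4.22 to 17.7 CPM, counts scaled to the library size. The knockout check followed the labels: Rpl3l was lower in KO by a log2 fold change of -2.46 in Input and -5.84 in IP, and Rpl3 was higher by 0.95 and 1.35 (all adjusted p under 0.05). Summed cardiomyocyte markers stood at 45658 to 54726 CPM in the 12 libraries, with 7 of 8 markers detected and Actc1 listed at 0 everywhere. Globin genes took 1.70% to 17.2% of the counts, the most in WT IP replicate 2 and WT Input replicate 3. Cytosolic ribosomal protein genes took 5.15% to 6.10% of the counts of the Input libraries and 1.77% to 2.82% of those of the IP libraries. The 8 genes together took 0.198% to 0.255% of the Input counts and 0.110% to 0.132% of the IP counts.

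The coding sequences of Rpl22 and Rps27 and their like paralogs are shown because they set how far reads of parent and paralog can be separated, with capitals in the like sequence marking each base that differs from the parent or has no partner in it. They were read from GENCODE M21 transcripts (build GRCm38) and start at the start codon, and at most the first 300 aligned positions are printed. Rpl22 lies on chromosome 4 (152325742 to 152334071, plus strand, 4 exons) and Rpl22l1 on chromosome 3 (28805436 to 28807424, plus strand, 4 exons). Exons are those of the longest coding transcript of each gene. The genes encode 128 and 122 codons before the stop, and their coding sequences were identical at 66.9% of aligned positions, with no shared run longer than 26 bases.
Rpl22: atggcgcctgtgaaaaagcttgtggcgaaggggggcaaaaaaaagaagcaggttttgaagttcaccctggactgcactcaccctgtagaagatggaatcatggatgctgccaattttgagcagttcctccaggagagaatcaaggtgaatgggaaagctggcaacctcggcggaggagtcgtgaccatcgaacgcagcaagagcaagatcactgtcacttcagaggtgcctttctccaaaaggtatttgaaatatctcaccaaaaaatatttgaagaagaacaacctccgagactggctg
Rpl22l1: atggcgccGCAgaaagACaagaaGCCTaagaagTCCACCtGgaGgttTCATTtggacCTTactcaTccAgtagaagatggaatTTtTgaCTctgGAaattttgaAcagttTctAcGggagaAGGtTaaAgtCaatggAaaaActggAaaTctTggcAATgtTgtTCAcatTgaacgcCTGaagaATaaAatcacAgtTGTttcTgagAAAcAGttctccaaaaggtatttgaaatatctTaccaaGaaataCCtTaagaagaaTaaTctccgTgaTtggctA

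Rps27 lies on chromosome 3 (90212522 to 90213651, minus strand, 5 exons) and Rps27l on chromosome 9 (66946086 to 66949516, plus strand, 5 exons). Both encode 84 codons. Their coding sequences of 255 bases were identical at 76.1% of positions, and the longest shared run was 11 bases.
Rps27: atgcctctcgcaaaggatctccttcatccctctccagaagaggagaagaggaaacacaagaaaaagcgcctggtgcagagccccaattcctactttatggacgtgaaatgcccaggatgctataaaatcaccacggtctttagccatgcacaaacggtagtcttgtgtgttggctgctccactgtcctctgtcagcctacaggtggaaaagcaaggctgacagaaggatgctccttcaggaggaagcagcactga
Rps27l: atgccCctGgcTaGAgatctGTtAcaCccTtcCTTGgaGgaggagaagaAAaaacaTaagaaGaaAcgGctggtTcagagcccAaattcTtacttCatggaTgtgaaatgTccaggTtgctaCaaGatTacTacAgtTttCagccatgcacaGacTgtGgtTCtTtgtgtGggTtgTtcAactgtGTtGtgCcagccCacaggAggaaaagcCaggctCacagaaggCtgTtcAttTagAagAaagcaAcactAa

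Rps27 has a retrocopy annotated as protein coding, Rps27rt, which has 1 exon on chromosome 9 (114982366 to 114982739, minus strand). Its coding sequence was identical to that of Rps27 at all 255 positions, and the longest run shared by the annotated transcripts was 341 bases, so reads of these genes cannot be told apart by their coding part. The files assigned 283 counts to Rps27 and 3071 to Rps27rt over the 12 libraries, or between 994 and 1257 Rps27rt counts per 100 Rps27 counts in the 4 groups. How the counting divided reads between them is not given here. Values of Rps27 alone therefore describe the counts assigned to its locus, and values of Rps27 and Rps27rt summed are given beside them. Rps27l held 1346 counts and shares no such run with either gene. Of the counts of the 3 genes, Rps27l took 20.5%, 23.9% and 22.8% in the WT Input libraries and 39.8%, 49.8% and 30.3% in the WT IP libraries. In KO it took 27.2%, 26.0% and 22.8% in Input and 41.1%, 32.6% and 36.5% in IP. Every IP library held a larger Rps27l share than every Input library of its genotype.

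**Figure D1:**
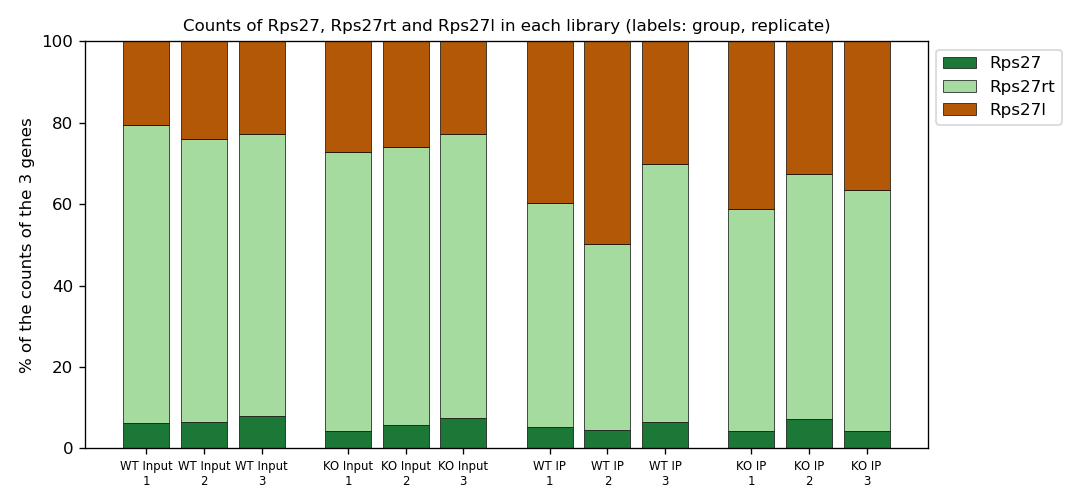
Stacked bars give the percent of the summed counts of Rps27, Rps27rt and Rps27l that each gene took in each of the 12 libraries (3 per group). Rps27rt takes the most in all libraries but WT IP replicate 2, and the Rps27l share is 20.5% to 27.2% in Input and 30.3% to 49.8% in IP.

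Rpl36a lies on chromosome X (134585654 to 134588062, plus strand, 5 exons) and Rpl36al on chromosome 12 (69182731 to 69184083, minus strand, 1 exon). Both encode 106 codons, and they are the closest of the 4 pairs, with 87.9% of coding positions identical and a longest shared run of 24 bases.

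Rpl36a-ps1, a single-exon copy on chromosome 14 (98993870 to 98994318, minus strand) that GENCODE M21 annotates as protein coding, matched Rpl36a at 97.8% of coding positions and shared a run of 281 transcript bases with it. It held 347 counts, against 900 for Rpl36a and 1234 for Rpl36al. The other 7 annotated pseudogenes that carry the symbol of 1 of the 8 genes were listed at 0 in every library. Pseudogenes of these genes under other names were not searched for. Of all 9936 processed pseudogenes in the annotation, 676 had any count. Rpl7 lies on chromosome 1 (16101295 to 16104662, minus strand, 7 exons) and Rpl7l1 on chromosome 17 (46773907 to 46782672, minus strand, 7 exons). Theirs was the most distant pair, with 53% of aligned coding positions identical and no shared coding run longer than 10 bases. They encode 270 and 246 codons, and held 3105 and 248 counts.

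In whole-heart RNA of WT animals, all 8 genes were detected. A nanopore cDNA read stands for 1 molecule whatever its length, so levels were read from undivided CPM. In WT Input they were 662 ± 25.9 CPM for Rpl7, 453 ± 73.7 for Rpl22 and 369 ± 52.8 for Rps27l. Rpl36al and Rpl36a stood at 293 ± 11.9 and 290 ± 72.3, Rps27 at 115 ± 29.9 and Rpl22l1 at 101 ± 23.4. Rpl7l1 was lowest. Divided by the length of the longest coding transcript, the values were 641 ± 91.9 CPM per kb for Rps27l, 601 ± 150 for Rpl36a, 569 ± 22.3 for Rpl7, 252 ± 65.3 for Rps27, 230 ± 9.33 for Rpl36al, 221 ± 35.9 for Rpl22, 183 ± 42.3 for Rpl22l1 and 17.3 ± 5.65 for Rpl7l1 (SD, n = 3). Neighbours in the order per kb differed by less than the larger of their SDs among the first 3 genes and among the next 4, and Rpl7l1 stood below all others. This order depended on the transcript taken, because Rpl22, Rpl36al and Rpl7l1 have both short and long annotated coding transcripts. With the shortest one, Rpl22 stood highest at 955 ± 156 CPM per kb, Rpl36al reached 557 ± 22.6, close to Rpl36a, and Rpl7l1 was again lowest at 34.4 ± 11.2. The values per kb are therefore not read as an order of molecule numbers, and the undivided CPM values are printed in the rest of the text.

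In the pulldown, some of the 8 genes were called lower than in Input and others were not called. Differences among the 8 were not tested. In WT hearts Rpl22, Rps27, Rps27l and Rpl36a were lower in IP than in Input, and Rpl22l1, Rpl36al, Rpl7 and Rpl7l1 did not pass the test (edgeR quasi-likelihood, adjusted p under 0.05). In KO hearts Rpl22, Rpl22l1, Rps27, Rps27l, Rpl36a and Rpl7 were lower in IP. These are 4 and 6 of 8 genes, where 14% of all genes tested in WT and 16.4% in KO were called in either direction and 8.67% and 9.78% were lower. None of the 8 was called higher in IP, where 5.37% of all genes in WT and 6.64% in KO were. Scaling by library totals, in place of TMM factors, moved the higher share of the called genes in KO from 40.4% to 57.2%. Libraries did not overlap, with IP lower, for 6 of 8 genes in WT and 7 of 8 in KO, against 18.2% and 15.6% of all genes. The other cytosolic ribosomal protein genes were lower in IP almost throughout, 70 of 73 tested genes in WT with a median log2 fold change of -1.43 and 68 of 73 in KO with a median of -1.30, so low values in IP were shared by the class. Among the 73, the lowest values were those of Rps12 and Rpl35 in WT, with -2.67 and -2.49. In KO they were those of Rps12 and Rpl39, with -2.51 and -2.44. The median of all genes tested was 0.02 in WT and 0.01 in KO. In these bulk samples, fewer cells of a type and less RNA per cell cannot be told apart.

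Rpl22 had the largest difference of the 8 in WT. Its Input values were 469, 372 and 517 CPM in WT and 632, 408 and 432 CPM in KO. Its IP values were 75.5, 73.7 and 89.8 CPM in WT and 145, 126 and 136 CPM in KO. Every IP library lay below every Input library. The log2 fold change of IP against Input was -2.50 ± 0.20 (SE) in WT, 5.66-fold lower with adjusted p = 3.88e-09, and -1.87 ± 0.19 in KO, 3.65-fold lower with adjusted p = 2.52e-07. In WT 1 of the 73 other ribosomal protein genes was lower still, Rps12 with -2.67, and in KO 8 of 73 were.

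Rpl22l1 differed from its parent in WT. Its WT values were 115, 74.0 and 114 CPM in Input and 71.1, 56.5 and 98.6 CPM in IP, ranges that overlap, with a log2 fold change of -0.41 ± 0.27 and adjusted p = 0.332. In KO its values were 156, 104 and 108 CPM in Input and 32.7, 60.2 and 43.2 CPM in IP. The KO groups did not overlap, and the log2 fold change was -1.40 ± 0.30 with adjusted p = 0.00166. In WT the Rpl22l1 value stood above those of 71 of the 73 other ribosomal protein genes, and in KO above 32 of 73.

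Rps27 was lower in IP by about the same amount in both genotypes. WT Input held 110, 88.8 and 148 CPM and WT IP 26.6, 18.8 and 35.2 CPM, and KO Input held 95.2, 84.7 and 119 CPM and KO IP 18.7, 30.1 and 18.3 CPM. The groups did not overlap in either genotype. The log2 fold change was -2.08 ± 0.30 in WT (adjusted p = 2.32e-05) and -2.08 ± 0.33 in KO (adjusted p = 8.4e-05). Rps27rt, which took most counts of this coding sequence, gave -2.13 ± 0.20 and -2.27 ± 0.20, and the sum of both genes -2.13 and -2.26.

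Rps27l was lower in IP by less. Its values were 356, 323 and 427 CPM in WT Input and 200, 204 and 162 CPM in WT IP, and 598, 385 and 364 CPM in KO Input and 184, 135 and 160 CPM in KO IP. No IP library reached the lowest Input library of its genotype. The log2 fold change was -0.96 ± 0.19 in WT (adjusted p = 0.00125) and -1.52 ± 0.20 in KO (adjusted p = 7.51e-06). In WT the Rps27l value stood above those of 58 of the 73 other ribosomal protein genes.

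In the third pair the X-linked parent was lower in IP and the retrogene was not called. Rpl36a held 312, 210 and 349 CPM in WT Input and 69.6, 99.4 and 129 CPM in WT IP, and 377, 281 and 284 CPM in KO Input and 95.7, 105 and 108 CPM in KO IP. The groups were apart in both genotypes, with log2 fold changes of -1.55 ± 0.22 (adjusted p = 1.84e-05) and -1.61 ± 0.23 (adjusted p = 1.71e-05). Rpl36al held 292, 306 and 282 CPM in WT Input and 198, 236 and 178 CPM in WT IP, and 312, 273 and 256 CPM in KO Input and 257, 144 and 196 CPM in KO IP. All 3 WT IP libraries lay below the WT Input libraries, while the highest KO IP library lay just above the lowest KO Input library. The log2 fold change was -0.52 ± 0.19 in WT (adjusted p = 0.0677) and -0.52 ± 0.20 in KO (adjusted p = 0.0782). Rpl36a-ps1 was not called, with 0.08 ± 0.30 in WT and -0.12 ± 0.32 in KO, and Rpl36a summed with it gave -1.10 and -1.21, called in both genotypes.

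Rpl7, the most abundant of the 8 by counts, differed little between fractions. It held 648, 646 and 692 CPM in WT Input and 563, 541 and 546 CPM in WT IP, and 598, 663 and 784 CPM in KO Input and 523, 522 and 467 CPM in KO IP. Input and IP libraries did not overlap in either genotype. The log2 fold change was -0.27 ± 0.15 in WT (adjusted p = 0.237) and -0.43 ± 0.15 in KO, where the adjusted p of 0.04999 sat at the threshold and was under it in 4 of 15 alternative analyses. Rpl7 stood above 71 of the 73 other ribosomal protein genes in WT and 68 of 73 in KO. The 3 other ribosomal protein genes not called in WT were Rpl4, Rpl9 and Rpl10, with 0.07, -0.78 and -0.20, and in KO Rpl5 and Rpl7a joined them with -0.38 and -0.30.

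Rpl7l1, the like gene with the fewest counts, did not pass the test in either genotype. It held 39.9, 61.7 and 33.6 CPM in WT Input and 62.2, 58.2 and 42.3 CPM in WT IP, which overlap, and its log2 fold change of 0.25 ± 0.30 (adjusted p = 0.635) exceeded that of all 73 other ribosomal protein genes in WT. In KO it held 53.3, 57.8 and 62.5 CPM in Input and 21, 36.6 and 33.2 CPM in IP. These groups did not overlap, and the log2 fold change was -0.88 ± 0.34 (adjusted p = 0.0809). These are 9 to 42 counts per library, so its values have the widest counting error of the like genes.

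**Figure D2:**
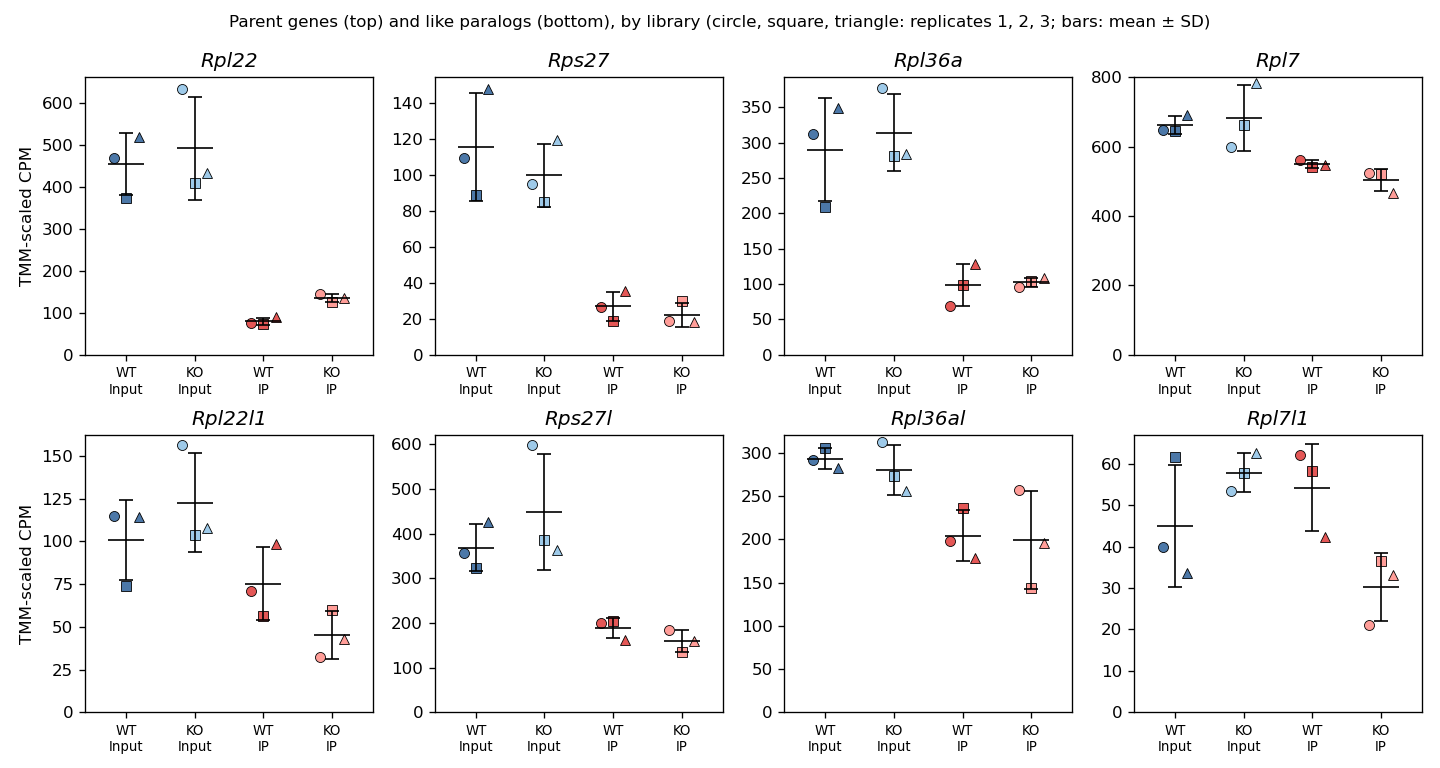
TMM-scaled CPM of each gene in the 12 libraries, on axes that start at 0, with parents in the upper row and like paralogs in the lower row; symbols are single libraries and bars are mean ± SD of 3. Input lies above IP without overlap for Rpl22, Rps27, Rps27l, Rpl36a and Rpl7 in both genotypes, and Rpl22l1, Rpl36al and Rpl7l1 overlap between fractions in at least 1 genotype.

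**Figure D3:**
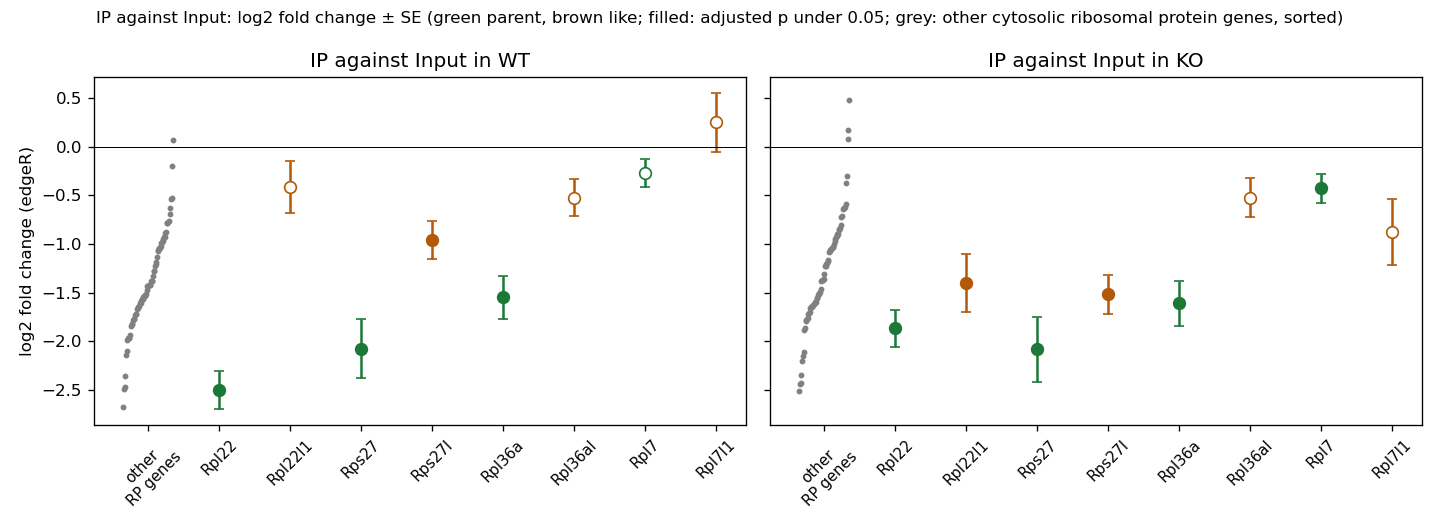
Log2 fold change of IP against Input with its SE for the 8 genes, in WT and in KO, beside 73 other cytosolic ribosomal protein genes (grey, sorted). Filled symbols passed the test, 4 of 8 in WT and 6 of 8 in KO.

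The difference between fractions moved with transcript length over all genes. Genes with a longest transcript under 700 bp had a median log2 fold change of IP against Input of -0.45 in WT and -0.62 in KO, and those of 3000 bp and over 0.15 and 0.20. Rpl22l1, Rps27, Rps27l and Rpl36a are in the shortest class, while Rpl22, Rpl36al and Rpl7l1 have longer annotated forms. With the trend on length subtracted, an alternative chosen after seeing the data, Rpl22 stood at -2.42 in WT and -1.77 in KO, and Rps27 at -1.39 and -1.29. Rpl36a stood at -0.88 and -0.84, and Rps27l at -0.34 and -0.81. Rpl22l1 stood at 0.22 in WT and -0.68 in KO, Rpl36al at -0.23 and -0.22, Rpl7 at 0.07 and -0.07, and Rpl7l1 at 0.26 and -0.85. These are values with no test, and the low ribosomal protein genes are themselves part of the trend that was subtracted. The trend was read at the longest coding transcript of each gene, 2051 bp for Rpl22 and 1276 bp for Rpl36al. Both genes also have short coding forms, of 474 and 526 bp, and values at those lengths were not computed. How far Rpl22 and Rpl36al would move with the short forms is therefore not known.

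KO was compared with WT in each fraction. In whole-heart RNA, where Rpl3l was lower and Rpl3 higher in KO, 0 of 8 genes were called by edgeR or DESeq2, none had an unadjusted p under 0.05 by edgeR, and KO and WT libraries overlapped for all 8. Of all genes tested, 0.182% were called, 7.11% had an unadjusted p under 0.05 and 12.4% did not overlap. Log2 fold changes of KO against WT in Input ran from -0.21 ± 0.29 for Rps27 to 0.33 ± 0.34 for Rpl7l1. Rpl22 stood at 0.13 ± 0.18 and Rpl22l1 at 0.30 ± 0.29, where Rpl3 rose by 0.95. The smallest SE was 0.15, for Rpl7, and fold changes of the size of 1 SE cannot be seen at this depth.

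In IP, too, none of the 8 genes was called by edgeR or DESeq2, against 0.091% of all genes tested. By unadjusted p, 3 of 8 were under 0.05 (Rpl22, Rpl22l1 and Rpl7l1), against 5.2% of all genes. KO and WT libraries did not overlap for 3 of 8 (Rpl22 higher in KO, Rpl7 and Rpl7l1 lower), against 10.8% of all genes in either direction, 5.4% higher and 5.44% lower.

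Rpl22 had IP values of 75.5, 73.7 and 89.8 CPM in WT and 145, 126 and 136 CPM in KO, with every KO library above every WT library. The log2 fold change of 0.76 ± 0.21 (adjusted p = 0.342) did not pass the test over all genes. It exceeded that of 72 of the 73 other ribosomal protein genes, whose median was 0.08, and Rpl3 was the one above it. Its paralog stood in the opposite direction. Rpl22l1 held 71.1, 56.5 and 98.6 CPM in WT IP and 32.7, 60.2 and 43.2 CPM in KO IP, with 1 KO library inside the WT range, and its log2 fold change was -0.68 ± 0.28 (adjusted p = 0.920).

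Rpl7l1 held 62.2, 58.2 and 42.3 CPM in WT IP and 21, 36.6 and 33.2 CPM in KO IP. Its log2 fold change was -0.80 ± 0.30 (adjusted p = 0.884), the lowest of the 8. Rpl7 stood at -0.13 ± 0.14 and Rps27l at -0.26 ± 0.20. Rps27, Rpl36a and Rpl36al were within 1 SE of no difference, at -0.22 ± 0.35, 0.07 ± 0.23 and -0.06 ± 0.19. The values of Rpl22l1, Rps27l and Rpl7l1 lay below those of all 73 other ribosomal protein genes. This ranking takes no account of the SEs, and no difference from the other genes was tested. Rpl22l1 and Rpl7l1 had few counts, 420 and 248 over the 12 libraries, and SEs of 0.28 and 0.30. Rps27l, at -0.257 ± 0.199, was level within its SE with the lowest of the 73, Rpl41 at -0.254 ± 0.202. For KO against WT in Input, Rpl22l1, Rps27l and Rpl7l1 lay above 70, 69 and 71 of the 73. The direction of these genes in IP was the same with each IP library left out in turn. The ranges were -0.96 to -0.45 for Rpl22l1, -0.36 to -0.14 for Rps27l and -0.96 to -0.63 for Rpl7l1. Rpl22 stayed between 0.70 and 0.85.

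**Figure D4:**
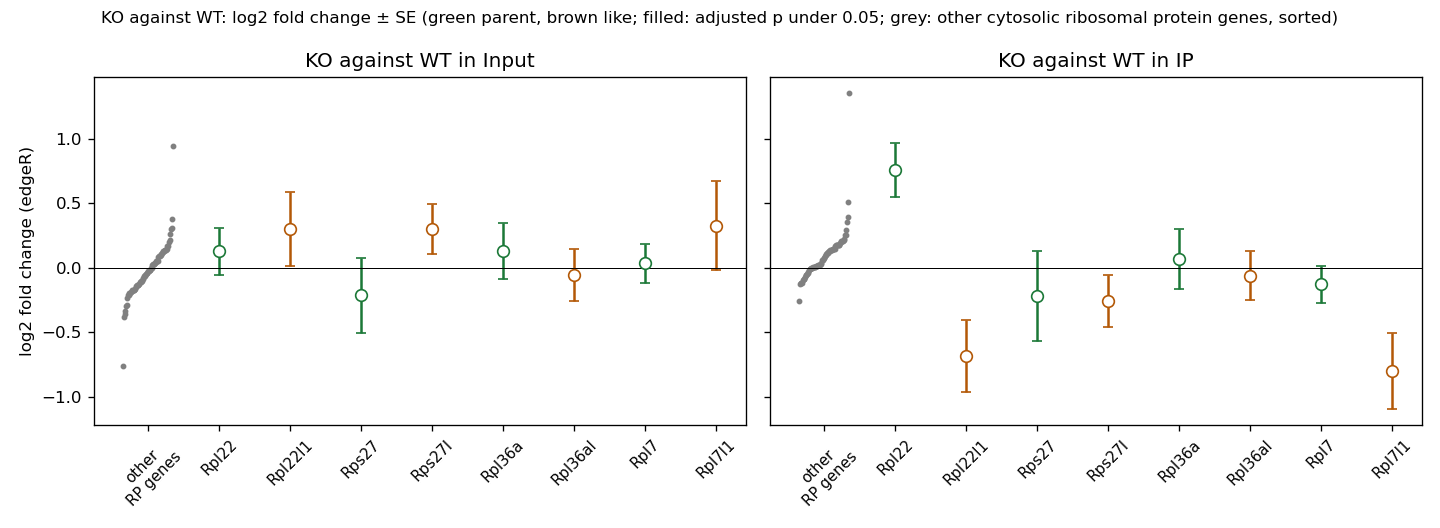
Log2 fold change of KO against WT with its SE for the 8 genes, in Input and in IP, beside 73 other cytosolic ribosomal protein genes (grey, sorted). No symbol is filled because none of the 8 passed the test, and in IP Rpl22 sits at 0.76 while Rpl22l1 and Rpl7l1 sit at -0.68 and -0.80.

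Whether the IP to Input ratio differed between genotypes was tested directly with the interaction term, and 0 of 8 genes were called by edgeR or DESeq2, against 0.091% of all genes tested. By edgeR 3 of 8 had an unadjusted p under 0.05, against 7.02% of all genes. Rpl22 had a genotype change of the log2 ratio of 0.63 ± 0.28 (adjusted p = 0.669), Rpl22l1 of -0.99 ± 0.40 (adjusted p = 0.620) and Rpl7l1 of -1.13 ± 0.45 (adjusted p = 0.620). Rps27l had -0.56 ± 0.28 (adjusted p = 0.722). That Rpl22l1 and Rpl7 were called in KO and not in WT was thus not shown to be a difference between the genotypes. This comparison shares its libraries with those above and adds no independent samples.

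The balance within each pair was followed as the number of like counts per 100 parent counts in the same library, which needs no scaling between libraries. These ratios are descriptions, with no test, since 3 libraries against 3 cannot give an exact p below 0.10. Log2 values have a pseudocount of 0.5 on each count.

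For the first pair, Rpl22l1 per 100 Rpl22 counts was 24.5, 19.9 and 22.1 in WT Input and 24.7, 25.5 and 25.0 in KO Input. In IP it was 94.1, 76.7 and 109.8 in WT and 22.6, 47.9 and 31.7 in KO. The 2 genes were thus counted about equally often in WT ribosome-bound RNA, with Rpl22l1 at 48.6% of the pair's pooled counts (exact 95% interval 42.6% to 54.6%, counting error only), against 18.2% (15.2% to 21.6%) in WT Input and 26.4% (21.7% to 31.5%) in KO IP. The log2 ratio in IP was 1.49 lower in KO than in WT, a difference of -1.49 that ran from -1.76 to -1.24 with 1 library left out, and no KO library reached a WT library. The WT IP ratio exceeded the WT Input ratio by 2.05 on the log2 scale with no overlap, and the KO IP ratio exceeded the KO Input ratio by 0.38 with overlap. That last value was 0.10 without KO IP replicate 2 and 0.63 without KO IP replicate 1. KO IP replicate 1, with 14 Rpl22l1 counts, had the lowest ratio of the KO IP libraries, and its ratio lay within the range of the Input libraries. In Input, KO and WT did not overlap either, but by 0.19 on the log2 scale, and by 0.11 without WT Input replicate 2.

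For the second pair, Rps27l per 100 Rps27 counts was 325, 364 and 289 in WT Input, 628, 455 and 305 in KO Input, 750, 1082 and 460 in WT IP, and 988, 448 and 873 in KO IP. IP exceeded Input without overlap in WT, by 1.12 on the log2 scale, and with overlap in KO, by 0.69, or by 0.42 without KO Input replicate 3. KO and WT overlapped in both fractions. With Rps27rt added to Rps27, the pooled numbers were 28.6 and 34.8 per 100 in WT and KO Input and 64.6 and 56.4 in WT and KO IP. The order of parent and like paralog thus turned with the retrocopy, while the higher ratio in IP was present both ways.

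For the third pair, Rpl36al per 100 Rpl36a counts was 93.6, 145.9 and 80.8 in WT Input, 82.8, 97.3 and 90.0 in KO Input, 285, 238 and 138 in WT IP, and 268, 138 and 182 in KO IP. The retrogene was counted about as often as the parent in Input, with 50.9% of the pooled WT counts (46.9% to 54.8%), and more often in IP, with 67.7% (63.6% to 71.6%). IP exceeded Input by 1.02 in WT on the log2 scale, with 1 WT IP library below the highest Input library, and by 1.06 in KO with no overlap. With Rpl36a-ps1 added to Rpl36a, the pooled numbers were 85.5 per 100 in WT Input, 73.3 in KO Input, 127 in WT IP and 112 in KO IP, and IP exceeded Input by 0.57 in WT and 0.67 in KO. KO and WT overlapped in both fractions.

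For the fourth pair, Rpl7l1 per 100 Rpl7 counts was 6.15, 9.54 and 4.85 in WT Input, 8.92, 8.72 and 7.97 in KO Input, 11.1, 10.8 and 7.74 in WT IP, and 4.02, 7.02 and 7.12 in KO IP. In IP the KO libraries lay below the WT libraries, by -0.71 on the log2 scale and by -0.87 to -0.45 with 1 library left out. IP exceeded Input by 0.54 in WT with overlap, and lay below it in KO by -0.55 without overlap. The WT value was 0.33 without WT Input replicate 3 and 0.80 without WT Input replicate 2, and the KO value ran from -0.68 to -0.29, the latter without KO IP replicate 1. In both this pair and Rpl22l1 and Rpl22 the like share in IP was lower in KO than in WT without overlap. In Rps27l and Rps27 and in Rpl36al and Rpl36a the differences of 0.00 and -0.16 were within the spread of the libraries. Among single genes, 10.8% of all tested did not overlap between KO and WT in IP, and no share over other gene pairs was computed. None of the genes of the 4 pairs was called in that comparison.

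**Figure D5:**
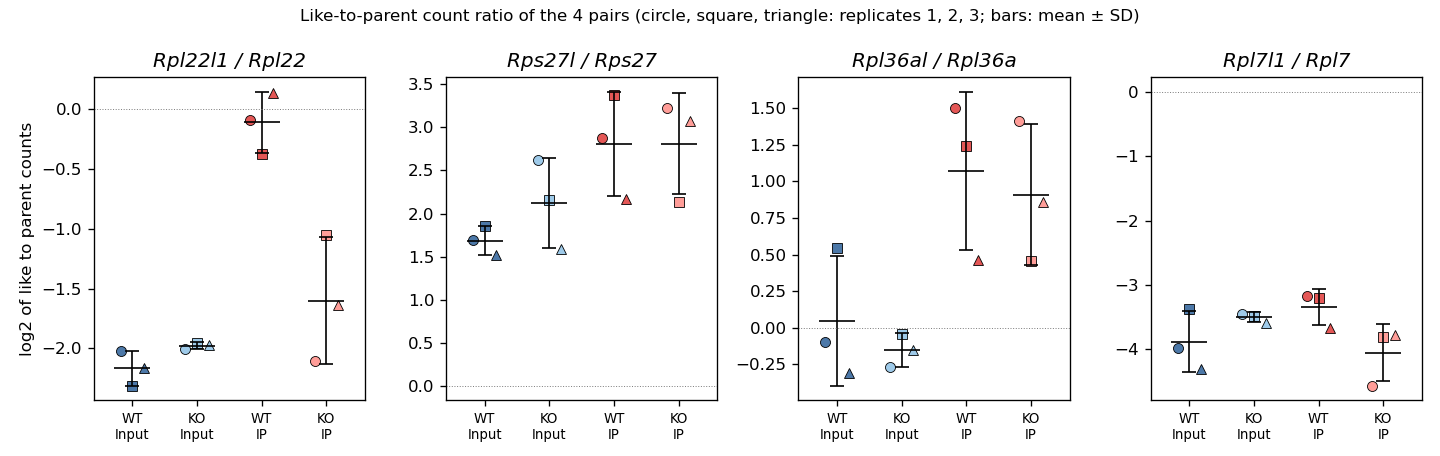
Log2 of like to parent counts (pseudocount 0.5) of the 4 pairs in each library, with mean ± SD of 3 libraries and a dotted line at equal counts; each panel has its own axis. For Rpl22l1 and Rpl22 the WT IP libraries stand near equality, at 76.7 to 109.8 like counts per 100 parent counts, above the 22.6 to 47.9 of KO IP and the 19.9 to 25.5 of Input.

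Genes tied to the known roles of the paralogs were read beside them. Of 20 known p53 target genes, 11 could be tested, Rps27l not being counted among them. None was called in KO against WT in Input, in IP or in the interaction. For KO against WT in Input, 8 of 11 were above 0 and 3 below, with a median of 0.07. Btg2 stood highest there, at 1.85 ± 0.42 (edgeR, adjusted p = 0.0701), and Sesn1 stood at 0.75 ± 0.24 (adjusted p = 0.414). In IP these 2 genes stood at 0.39 ± 0.39 and 0.27 ± 0.23. Btg2 had an interaction value of -1.45 ± 0.58 (edgeR, adjusted p = 0.620). In IP against Input, 1 of 11 was lower in WT, the apoptosis effector Bax with -1.23 ± 0.40, and in KO 3 were lower and 1 higher, namely Ccng1 with -0.97 ± 0.17, Sesn1 with -1.06 ± 0.23, Btg2 with -1.55 and, higher, Perp with 0.66. Of all genes tested, 8.67% were lower in WT, and 9.78% were lower and 6.64% higher in KO. The median was -0.48 in WT and -0.54 in KO, where Rps27l stood at -0.96 and -1.52. Of 26 assembly factors of the large subunit, the step in which Rpl7l1-related proteins act, 17 could be tested. The only call in the 5 comparisons was Rrp1, higher in KO IP than in KO Input by 1.04 ± 0.26, where 6.64% of all genes tested were higher. The median of the 17 factors was 0.11 in WT and 0.18 in KO for IP against Input. For KO against WT in IP it was -0.03, where Rpl7l1 stood at -0.80.

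Levels of cell type markers are given beside these values. Of 7 cardiomyocyte markers tested in IP against Input, 1 was called in WT, Myh6, lower with -0.54. In KO 2 were called, Tnnt2 and Ryr2, higher with 0.64 and 0.55. The median of the 7 was -0.02 in WT and 0.09 in KO. Of all genes tested, 8.67% were lower and 5.37% higher in WT, and 9.78% were lower and 6.64% higher in KO. The summed level of 7 endothelial markers was 2264 to 3534 CPM in the Input libraries and 1574 to 2145 CPM in IP, and for IP against Input their median log2 fold change was -0.21 in WT and -0.38 in KO, with 5 of 7 below 0 in each. In WT 1 of the 7 was called, Egfl7 with -1.97, where 14% of all genes tested were called in either direction. In KO 3 of the 7 were called, Egfl7 with -1.79, Fabp4 with -1.06 and Cdh5 with -0.74, where 16.4% of all genes tested were. The summed level of 6 adipocyte markers was 128 to 692 CPM in Input and 16.3 to 54.6 CPM in IP. The 2 that could be tested were called lower in IP in each genotype. Cfd stood at -3.35 in WT and -3.13 in KO, and Ucp1 at -5.60 and -4.49. For 7 fibroblast markers the range was 2737 to 3426 CPM in Input, and in IP it was 2657 to 3097 CPM in WT and 3226 to 3899 CPM in KO, without overlap. In IP against Input, 1 of the 7 was called, Col3a1, lower in KO with -0.69. For 7 macrophage markers the ranges were 523 to 930 CPM in Input and 657 to 894 CPM in IP. Smooth muscle and pericyte markers (6) ran from 681 to 852 CPM in Input and 719 to 969 CPM in IP, and erythroid markers (6) from 16718 to 165736 and from 16154 to 202646 CPM. No marker list had a called gene in KO against WT in either fraction. For KO against WT in IP, 6 of 7 fibroblast markers were above 0, with a median of 0.20. All 6 macrophage markers tested were below 0, from -0.40 to -0.00093 with a median of -0.09. All 5 erythroid markers tested were also below 0, with a median of -1.17. For KO against WT in Input, 6 of 7 fibroblast markers were also above 0 (median 0.19) and all 5 erythroid markers below 0 (median -1.19). Macrophage markers there were above 0 for 5 of 6 (median 0.30). The IP values of the markers stand beside those of Rpl22, Rpl22l1 and Rpl7l1 in the same comparison. The part of these cells in the values of the paralogs was not tested.

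The genes whose log2 CPM followed each member most closely over the 12 libraries, were taken from the 1511 or 1512 other genes with a mean of at least 100 CPM. These correlations are descriptions over libraries that share depth and fraction. Rpl22 was closest to the ribosomal protein genes Rpl17 (Pearson r = 0.986) and Rps16 (0.976), Rps27 to Rps18 (0.977) and Rpl9-ps6 (0.977), and Rpl36a to Rps29 (0.984) and Rps10 (0.980). Rps27l was closest to Uqcr11 (0.990) and Cox7a2 (0.981), small subunits of respiratory complexes, and Rpl36al to Uqcrq (0.953), another such subunit, and Smim11 (0.946). Rpl22l1 was closest to Selenop (0.929), which encodes a selenium transport protein, and Ube2d3 (0.916), a ubiquitin-conjugating enzyme. Rpl7 was closest to the vesicle fusion gene Vti1b (0.952) and to Cox7a2l (0.906), which acts in respiratory supercomplexes, and Rpl7l1 to the phosphatase inhibitor Ppp1r2 (0.870) and the cardiac calcium regulator Pln (0.857). A ribosomal protein gene or pseudogene was nearest for 3 of the 4 parents and for none of the 4 like paralogs. How often this holds for other ribosomal protein genes was not computed, so the count is not read as a trait of the paralogs. In IP against Input, Uqcr11 stood at -0.64 in WT and -1.06 in KO, beside -0.96 and -1.52 for Rps27l, and Rpl17 at -1.65 and -1.36, beside -2.50 and -1.87 for Rpl22.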

How the data were processed

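The 12 libraries are 3 each of WT Input, KO Input, WT IP and KO IP, grouped by title and genotype in the labels. The authors deposited 1 whole-number count per gene and library. Per the submitters' processing notes, minimap2 2.14, DESeq2 1.34.0 and the build GRCm38 were used, with no role or order stated; the counting tool and its rule for reads that match several genes are not given in the sources used here. Of 55401 gene IDs, 55141 matched GENCODE M21 without version, which gave names, lengths and coordinates.

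From the deposited counts, edgeR 4.0.16 (R 4.3.3, limma 3.58.1) fitted all 12 libraries with 1 mean per group after filterByExpr (minimum count 10, minimum total 15) and TMM scaling. P-values came from the quasi-likelihood test and were adjusted by Benjamini and Hochberg over the 6596 genes tested, with a threshold of 0.05. The SE was obtained by dividing the log2 fold change by the root of its F statistic, and CPM values carry the TMM factors. The procedure was tested on simulated data. Like-to-parent ratios use raw counts, and exact 95% intervals of shares cover counting error only. Coding sequences were aligned with biopython 1.88.

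The genes and lists were chosen with earlier results of these data known. Named besides the 8 genes were Rpl3l and Rpl3, retrocopies with at least 10 counts, the 2 genes nearest in pattern to each member, the called ribosomal protein genes of largest change and in each list at most 2 called genes, those of smallest p. Ribosomal protein genes not called, Btg2, Perp and Cdh5 were named after their values were seen.

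Alternatives were DESeq2 size factors, library totals, no filter, a filter of 30 counts in 3 libraries, the DESeq2 1.42.0 test, a fit of the compared libraries alone, a block for the replicate number, omission of globin genes and omission of each library in turn. Summing retrocopies with the parent and subtracting a length trend were added after seeing the data. Deviations of same-numbered libraries from their group means correlated between -0.115 and 0.042 over 18 pairs, and the own number was never the best match, so no pairing by number was used. Whether Input and IP libraries with different numbers came from the same heart was not tested. Libraries of a group differed by more than sampling noise. P-values set a difference against the spread between libraries within groups. That spread was estimated per gene, shared by the 4 groups and drawn toward a trend over all genes, so it is not that of any single group.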

Additional observations from a re-analysis of the deposited data

How the results depend on the processing

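Counts of called members kept within 1.5 times of their values under all alternatives with a test: 0 of 8 for KO against WT in both fractions and for the interaction, 4 to 5 in WT and 5 to 7 in KO for IP against Input. Rpl22, Rps27, Rps27l and Rpl36a were lower in IP in all 15 alternatives of both genotypes, and Rpl22l1 in all 15 in KO. Rpl36al was called in 2 of 15 in each genotype. The filter of 30 counts left out Rpl7l1. With the replicate block, the called members were 4 in WT and 5 in KO for IP against Input and 0 in the other 3 comparisons; the numbers showed no pairing. Over all genes, KO against WT gave 12 calls in Input and 6 in IP, and 77 and 55 with no filter. With a filter of 30 counts there were 5 in each, and the DESeq2 test gave 14 and 10. Leaving out WT Input replicate 1 gave 4 in Input and leaving out KO Input replicate 3 gave 5. In IP, omission of WT IP replicate 1 gave 2 calls, and omission of either replicate 2 of WT or replicate 3 of KO gave 3. IP against Input in WT gave 926 calls, and 601 without WT Input replicate 1. The interaction gave 6 calls, 37 with no filter, 1 without WT Input replicate 1 and 3 without WT IP replicate 3. Scaling by library totals put the median over all genes at 0.12 for KO against WT in IP and at 0.15 for IP against Input in KO.

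With retrocopies added to the parent, the log2 ratio of Rps27l to Rps27 became -1.79 in WT Input, -1.56 in KO Input, -0.60 in WT IP and -0.78 in KO IP, and that of Rpl36al to Rpl36a became -0.22 in WT Input, -0.45 in KO Input, 0.34 in WT IP and 0.22 in KO IP, since more counts enter the denominator.

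With the length trend subtracted, IP against Input in WT turned for Rpl22l1 from -0.41 to 0.22 and for Rpl7 from -0.27 to 0.07. Under the other alternatives, signs turned only for members that were not called, and the cause was not tested. For KO against WT in Input, Rpl7 gave -0.0142 with no filter and Rps27 0.0322 with retrocopies summed; with 1 library left out Rpl22 ran from -0.12 to 0.24, Rpl36a from -0.0661 to 0.27 and Rpl7 from -0.0687 to 0.11. For KO against WT in IP, Rpl36al gave 0.057 with library totals, and with 1 library left out Rpl36a ran from -0.15 to 0.30, Rpl36al from -0.27 to 0.14 and Rps27 from -0.54 to 0.00863. For the interaction, Rpl36al and Rps27 gave 0.0608 and 0.0321 with library totals, 0.036 and 0.0391 with no filter, 0.0228 and 0.0188 with a filter of 30 counts, and 0.00186 and 0.00581 with the replicate block; with 1 library left out Rpl36al ran from -0.21 to 0.20, Rpl36a from -0.28 to 0.17 and Rps27 from -0.32 to 0.22. Depth limits Rpl7l1 and Rps27 most, with 248 and 283 counts in all.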
